A study of Mus musculus with 16 samples.

Results

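Chemokine receptors are the surface receptors that guide leukocytes along gradients of chemokines, and 7 of their genes were followed by symbol in the 4 groups of sorted bone marrow cells: Cxcr4, Cxcr2, Ccr1, Ccr2, Ccr7, Ccr9 and Cx3cr1. The tumor and stroma tables listed 16612 genes between them. Each table listed 6 of the 7 receptors, and Ccr9 was listed in neither and was not analysed here. The rule that picked them uses their names and no measured value, but the members were chosen with earlier results of these data known.

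Mouse B-ALL cells of genotype BCR-ABL+, Arf-/- that carried mCherry were injected into the tail vein (500000 cells) of C57BL/6J WT or IL-6 KO hosts, 6 to 8 weeks old, of both sexes and with no drug treatment. The bone marrow was taken after 8 days and sorted into mCherry+ cells, called tumor, and mCherry- cells, called stroma. The genotype given for the leukemia holds no Il6 deletion, so that WT tumor and IL-6 KO tumor differed in the genotype of the host. Cells that lack Il6 themselves were host cells of IL-6 KO mice, which the sort placed in IL-6 KO stroma. Any host cells carried over into IL-6 KO tumor would lack it too, and the purity of the sort was not known. RNA of each of the 4 combinations was sequenced in 4 libraries after depletion of ribosomal RNA. Stroma here is every mCherry- cell of the marrow, and the sort used no marker of a host cell type. The labels do not say whether libraries of a group came from separate mice, so that p-values measure the spread between these libraries.

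The values are normalized counts, estimated read counts per gene that the authors scaled between libraries, and the methods give only an approximate depth shared by all libraries, so that the reads behind each library were not known. The tables of tumor and stroma were scaled separately, so that levels were compared only within a table, while fold changes and ratios of genes in a library are free of that scale. Summed normalized counts lay between 38817800 and 55593000 per library in tumor, 8805690 and 17470700 in WT stroma, and from 33973000 up to 44192000 in IL-6 KO stroma. Every IL-6 KO stroma library thus had a higher sum than every WT stroma library. Fold changes in stroma rest on the scaling of the authors between libraries, and a scaling to equal sums was not tried. Between 2.30% and 11.8% of the listed genes were at 0 in a stroma library, against 0.743% to 1.45% in a tumor library. The sort was checked with 14 B lineage markers, 13 of them listed in tumor and 14 in stroma, whose summed level was 150142 to 168184 in tumor libraries beside 14032 to 17421 for erythroid markers (10 of 15 listed). In stroma libraries the B lineage sum was 707 to 1796 beside 92350 to 433409 for erythroid markers (14 of 15 listed), so that B lineage markers exceeded erythroid markers in tumor libraries and were below them in stroma libraries.

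As background, chemokine receptors span the membrane with 7 helices and signal through the inhibitory G protein, after which receptor kinases and arrestins switch them off. Cxcr4, the receptor of Cxcl12, retains B cell progenitors, hematopoietic stem cells and neutrophils in the bone marrow, and Ccr7 with its ligands Ccl19 and Ccl21 leads lymphocytes and dendritic cells into lymph nodes. Cxcr2 releases neutrophils from the marrow, Ccr1 binds inflammatory CC chemokines on neutrophils and monocytes, Ccr2 lets classical monocytes leave the marrow toward Ccl2, Cx3cr1 binds fractalkine and marks patrolling monocytes and macrophages, and Ccr9 is the receptor of Ccl25 in thymus and gut.

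On GRCm38 with the GENCODE vM21 annotation, all are protein-coding genes. Cxcr2 (chr1:74153989-74161246, plus strand) and Cxcr4 (chr1:128588199-128592293, minus strand) lie on chromosome 1, and Ccr7 (chr11:99144196-99155077, minus strand) on chromosome 11. Chromosome 9 holds Cx3cr1 (chr9:119901616-120069879, minus strand), Ccr9 (chr9:123678439-123784330, plus strand), Ccr1 (chr9:123962124-123968692, minus strand) and Ccr2 (chr9:124101950-124113557, plus strand). Exons of Cxcr4, Cxcr2, Ccr1, Ccr2 and Ccr7 overlap no exon of another gene in the annotation, and Cx3cr1 shares 78 exonic nucleotides with the antisense gene Gm33858, which neither table lists. The transcript of Ccr1 has 77.5% identity with Ccr1l1 over 1036 nucleotides, under the 97% over at least 150 nucleotides that was taken as a near-identical copy. Cxcr2 was the only measured member past that limit, through a stretch of at most 190 nucleotides that transcripts of 6 other genes share (Casc4, Churc1, Dnajb14, Gm48610, Pbld1 and Snf8). How salmon divided reads of that stretch is not known, and Cxcr2 is uncertain to that extent.

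Cxcr2, Ccr1, Ccr2 and Cx3cr1 were higher together in IL-6 KO tumor, as described further on, and the 250 bases before the RefSeq start of each (GRCm38.p6, an entry for 6 of the 7 members) were searched on both strands. The motifs were the core of the myeloid factor PU.1 (GAGGAA), the STAT motif TTCNNNGAA and the C/EBP motif TTGCNNAA. RefSeq gives 1 start per gene, and GENCODE also has transcripts that start earlier, so that 233 bases of the Ccr2 window (chr9:124101933-124102182) and all 250 of the Cx3cr1 window (chr9:120068297-120068546) lie in exons of the gene itself, against 5 for Cxcr2 (chr1:74153744-74153993) and 0 for Ccr1 (chr9:123968693-123968942). The windows of Cxcr2 and Ccr1 are shown, since they lie before nearly all annotated exon bases and hold the only matches. They are on the strand of the gene, 5′ to 3′, with matches in capitals.
Cxcr2: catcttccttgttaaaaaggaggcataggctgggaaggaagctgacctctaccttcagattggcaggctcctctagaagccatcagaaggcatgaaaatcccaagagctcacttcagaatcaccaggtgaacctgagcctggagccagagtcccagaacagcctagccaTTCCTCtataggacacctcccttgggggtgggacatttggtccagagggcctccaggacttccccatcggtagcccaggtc
Ccr1: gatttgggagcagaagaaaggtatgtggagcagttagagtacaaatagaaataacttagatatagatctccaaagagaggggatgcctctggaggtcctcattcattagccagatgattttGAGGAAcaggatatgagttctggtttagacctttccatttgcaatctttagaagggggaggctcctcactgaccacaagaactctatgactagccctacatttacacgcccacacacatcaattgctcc
Cxcr2 had 1 match to the PU.1 core, 81 to 76 bases before the start, and Ccr1 had 1, 129 to 124 bases before it. Ccr2 and Cx3cr1 held none of these letters in the window, and no member with an entry matched the STAT or the C/EBP motif. No match overlapped that of another motif. Among 32841 promoter windows of this length, 23.3% held the PU.1 core, 7.02% the STAT motif and 9.57% the C/EBP motif. A match describes the letters and is not a measured binding site. The windows differed in base composition, with 54.4% G and C in Cxcr2, 43.6% in Ccr1, 37.2% in Ccr2 and 53.6% in Cx3cr1.

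Cxcr4 was the dominant receptor of the 6 in every group. Its level per kilobase of exon, which allows genes of different length to be compared, was 1744 ± 159 (SD, n = 4) in WT tumor, 1815 ± 256 (SD, n = 4) in IL-6 KO tumor. In stroma it was 255 ± 78.3 (SD, n = 4) in WT mice and 166 ± 36.0 (SD, n = 4) in IL-6 KO mice. These means were higher than those of 94.1% and 93.9% of the genes of the tumor table in WT and IL-6 KO and of 95.5% and 91.9% of those of the stroma table. Of the summed level per kilobase of the 6 receptors, Cxcr4 held 96.9% ± 0.188 (SD, n = 4) in WT tumor, 96.1% ± 0.535 (SD, n = 4) in IL-6 KO tumor and 85.6% ± 3.85 (SD, n = 4) in WT stroma. In IL-6 KO stroma its share was 67.4% ± 19.5 (SD, n = 4) and ran from 44.2% to 89.8%, so that the libraries of this group did not agree on the make-up. These shares are descriptions with no test, and using the longest transcript in place of all exons moved each of the 24 shares by less than 1 SD.

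The order of the other receptors differed by compartment. In WT tumor the second highest level per kilobase was that of Ccr7 (37.7 ± 3.15, SD, n = 4), above the ranges of Cxcr2 (7.23 ± 3.21, SD, n = 4) and Ccr2 (5.52 ± 0.943, SD, n = 4), which overlapped each other. Cx3cr1 (2.88 ± 1.39, SD, n = 4) and Ccr1 (1.98 ± 0.894, SD, n = 4) came last, with ranges that overlapped. In IL-6 KO tumor the order was the same, but no neighbours below Cxcr4 differed beyond their ranges, from Ccr7 at 22.0 ± 4.36 (SD, n = 4) through Cxcr2, Ccr2 and Cx3cr1 to Ccr1 at 8.11 ± 2.96 (SD, n = 4). In WT stroma Cxcr2 was second (24.8 ± 8.33, SD, n = 4), with no overlap with Cx3cr1 below it (7.65 ± 1.64, SD, n = 4), while Ccr2, Ccr7 and Ccr1 followed with ranges that overlapped. In IL-6 KO stroma Cxcr2 (59.6 ± 55.0, SD, n = 4) and Cx3cr1 (20.2 ± 9.75, SD, n = 4) again came after Cxcr4, and every pair of neighbours overlapped.

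**Figure D1:**
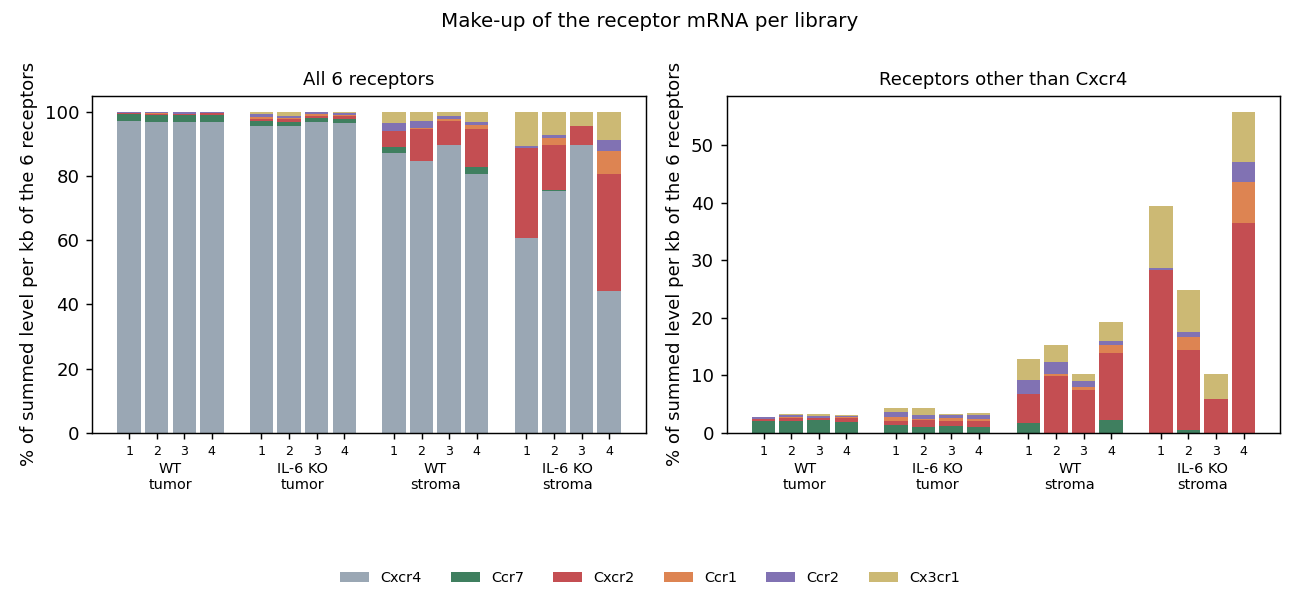
Share of each receptor in the summed level per kilobase of exon of the 6 measured receptors (y axis, percent) in each of the 16 libraries (x axis, libraries 1 to 4 of each group), with all 6 receptors on the left and those other than Cxcr4 on the right. Cxcr4 (grey) holds over 95% in every tumor library, and Cxcr2 (red) takes most of the remainder in 3 of the 4 WT stroma libraries and in every IL-6 KO stroma library.

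The first comparison asked whether the receptors differed in tumor, the sorted mCherry+ cells, between IL-6 KO and WT hosts. Tumor libraries also held neutrophil markers, with a summed level of 5303 to 5971 in WT and 8149 to 19316 in IL-6 KO. Which cells of the tumor fraction carried the receptor RNA was not tested. In tumor, Ccr1, Cx3cr1, Cxcr2 and Ccr2 were higher in IL-6 KO mice, by 2.33- to 3.74-fold, Ccr7 was lower, at 0.581 of its WT level, and no difference was found for Cxcr4. All 6 receptors listed passed the filter on low values, a mean normalized count over 10, and 4 were called higher and 1 lower at an adjusted p under 0.05 (limma on log2(normalized count + 1), two-sided, Benjamini-Hochberg over 14493 genes). Of all genes tested, 10.6% were called higher and 9.16% lower. The same 5 receptors had no overlap between the genotypes, 4 with all IL-6 KO values above the highest WT value, as for 13.6% of all genes, and 1 with all of them below the lowest, as for 12% of all genes. The median log2 fold change of the 6 was 1.297, beside -0.01 over all genes. Ccr1, 1 of the 4, passed the filter only through its IL-6 KO level, and the count and the median include it. With 1 added to each normalized count before the log2, changes of low genes are understated. The count of 5 called receptors fell in each fit that left out a library. It was 4 without WT tumor 2 or IL-6 KO tumor 2, and 3 without WT tumor 1, 3 or 4 or IL-6 KO tumor 3. Without IL-6 KO tumor 1 it was 2, and without IL-6 KO tumor 4 it was 1, Ccr2.

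**Figure D2:**
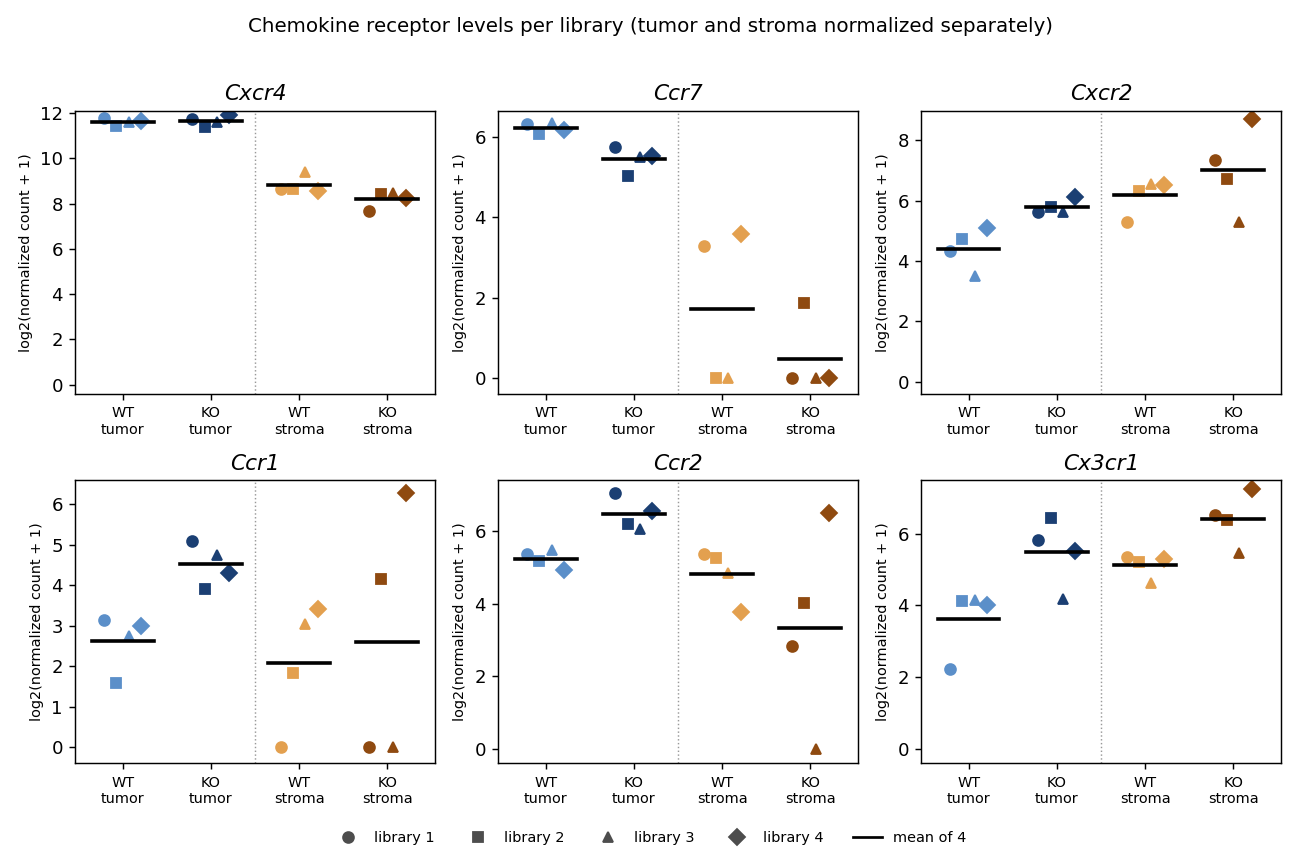
Level of each of the 6 receptors as log2(normalized count + 1) (y axis) in the 4 groups (x axis), with 1 point per library, shapes for the library number and a line at the mean of 4. In tumor, all IL-6 KO points of Cxcr2, Ccr1, Ccr2 and Cx3cr1 lie above the WT points and those of Ccr7 below, while stroma spreads more and has points at 0 for Ccr1, Ccr2 and Ccr7.

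Cxcr4, the bone marrow retention receptor, had normalized counts of 3484, 2800, 3080 and 3250 in WT tumor 1 to 4 and 3437, 2716, 3161 and 3813 in IL-6 KO tumor 1 to 4. The genotypes overlapped over most of their range, and the highest and the lowest library were both IL-6 KO. The log2 fold change was 0.05 ± 0.11 (SE, adjusted p = 0.778 by limma), with a 95% interval from -0.19 to 0.30, and it was below 0 without WT tumor 2 (-0.0047) or IL-6 KO tumor 4 (-0.0248).

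Ccr7, the lymph node homing receptor, had normalized counts of 79.3, 67.1, 80.2 and 71.9 in WT tumor 1 to 4. In IL-6 KO tumor 1 to 4 it had 52.6, 31.8, 44.4 and 45.3. Every IL-6 KO library lay below every WT library, and the log2 fold change was -0.78 ± 0.21 (SE, adjusted p = 0.0303 by limma). Without WT tumor 1, 3 or 4 or IL-6 KO tumor 3 or 4 the adjusted p was between 0.0548 and 0.0766, and with quantile normalization the fold change was -0.54 (adjusted p = 0.134). B lineage markers, those of the leukemic cells, had 1 of 13 tested called higher (7.69%) and 2 lower (15.4%). These shares are near the 10.6% and 9.16% of all genes, so that the counts are no result about these markers. Their summed level ran from 150142 to 154965 in WT tumor and from 159340 to 168184 in IL-6 KO tumor. Relative to that sum in the same library, Ccr7 was 0.447 to 0.526 per 1000 in WT tumor and 0.200 to 0.324 per 1000 in IL-6 KO tumor, with no overlap. Ccr7 was lower and the sum higher in every IL-6 KO library, so that the ratio could not overlap and is no separate check.

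Cxcr2, the receptor that brings neutrophils out of the marrow, had normalized counts of 19.0, 25.5, 10.3 and 33.3 in WT tumor 1 to 4 and 48.5, 54.0, 48.0 and 68.9 in IL-6 KO tumor 1 to 4. All IL-6 KO libraries were above the WT libraries, with a log2 fold change of 1.38 ± 0.35 (SE, adjusted p = 0.0252 by limma). Without IL-6 KO tumor 1 or 4 the adjusted p was 0.0570 or 0.0770.

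Ccr1, a receptor of inflammatory CC chemokines, was the lowest of the 6 in tumor. Its normalized counts were 7.76, 2.03, 5.66 and 6.94 in WT tumor 1 to 4 and 33.3, 14.1, 25.8 and 18.8 in IL-6 KO tumor 1 to 4. WT libraries were all under the filter value of 10 and IL-6 KO libraries all above it, so that the gene passed the filter through its IL-6 KO level. The log2 fold change was 1.90 ± 0.48 (SE, adjusted p = 0.0239 by limma), and without IL-6 KO tumor 1, 3 or 4 the adjusted p was 0.0785, 0.0581 or 0.0565.

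Ccr2, the receptor with which monocytes leave the marrow, had normalized counts of 40.7, 35.2, 43.9 and 29.4 in WT tumor 1 to 4. In IL-6 KO tumor 1 to 4 they were 130.8, 72.8, 64.9 and 93.2. The groups did not overlap, and the log2 fold change was 1.22 ± 0.26 (SE, adjusted p = 0.0126 by limma). Ccr2 was the only receptor that stayed past the threshold without each of the 8 tumor libraries in turn, with log2 fold changes from 1.03 to 1.36.

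Cx3cr1, the fractalkine receptor, had normalized counts of 3.68, 16.3, 16.9 and 15.0 in WT tumor 1 to 4 and 55.1, 85.1, 17.0 and 45.0 in IL-6 KO tumor 1 to 4. The groups touched without overlap, with IL-6 KO tumor 3 at 17.0 beside WT tumor 3 at 16.9, and WT tumor 1 stood far below the others. The log2 fold change of 1.86 ± 0.58 (SE, adjusted p = 0.0485 by limma) was past the threshold in only 1 of the 8 fits that left out a library, that without IL-6 KO tumor 3 (adjusted p = 0.0245). In the other 7 fits the adjusted p was between 0.0700 and 0.118.

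Neutrophil markers were higher in IL-6 KO tumor as well, while monocyte and macrophage markers were mixed. Of 16 mature neutrophil markers tested, 16 were higher in IL-6 KO tumor, beside 49.3% of all genes. Of these 9 were called (56.25%), beside 10.6% of all genes called higher. The summed level of the list was 5303 to 5971 in WT tumor and 8149 to 19316 in IL-6 KO tumor, with its lowest IL-6 KO value in library 3. Of 17 monocyte and macrophage markers tested, 9 were higher and 8 lower, with a median log2 fold change of 0.08. Of the 17, 4 were called higher (23.5%) and none lower, beside 10.6% and 9.16% of all genes. Ccl9, 1 of the 4, was tested only through its IL-6 KO level, with means of 8.56 in WT and 51.7 in IL-6 KO tumor, and the share includes it. Their summed level was 3212 to 3852 in WT tumor and 3806 to 5250 in IL-6 KO tumor, with overlap. None of the markers listed for either cell type was at 0 in every tumor library, and Stfa2l1 was the only marker of either list that the tumor table did not list. Of the other lists in tumor, 1 of 8 plasmacytoid dendritic cell markers was called higher, 1 of 10 erythroid and 2 of 8 mesenchymal and endothelial markers lower, and none of 4 conventional dendritic cell, 7 T and NK cell and 3 eosinophil, basophil and mast cell markers was called. Beside the same shares of all genes, 10.6% higher and 9.16% lower, counts this small are no result about these lists. In sorted bulk samples, a change in the number of cells of a type and a change in RNA per cell cannot be told apart, and the part of these cells in the receptor differences was not tested. Relative to the summed neutrophil markers of the same library, Cxcr2 was 1.94 to 5.58 per 1000 in WT tumor and 2.62 to 5.89 per 1000 in IL-6 KO tumor, with medians of 4.04 and 3.43. Cx3cr1 was 0.691 to 3.18 per 1000 in WT tumor and 2.08 to 4.41 in IL-6 KO tumor, and Ccr2 was 4.92 to 8.27 and 3.77 to 7.97. Ccr1 was 0.359 to 1.46 per 1000 in WT tumor and 0.728 to 3.17 in IL-6 KO tumor, so that on this ratio all 4 receptors overlapped between the genotypes. Relative to the summed monocyte and macrophage markers, Ccr2 was 8.28 to 12.1 per 1000 in WT tumor and 14.8 to 24.9 in IL-6 KO tumor, and Ccr1 was 0.631 to 2.02 and 2.86 to 6.78, both without overlap. On the same ratio Cxcr2 was 2.85 to 9.40 and 9.24 to 15.5, and Cx3cr1 was 0.955 to 5.08 and 4.46 to 17.3, both with overlap.

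**Figure D3:**
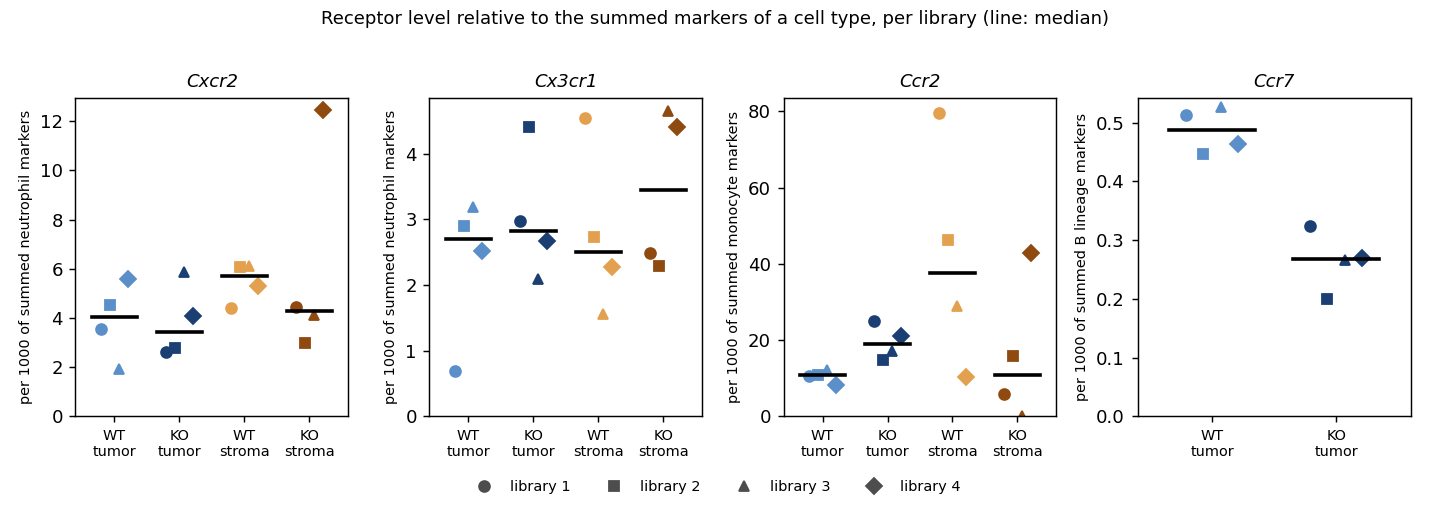
Normalized count of a receptor per 1000 of the summed normalized counts of the markers of a cell type in the same library (y axis), by group (x axis), with shapes for the library number and a line at the median of 4. Cxcr2 and Cx3cr1 overlap in all groups when set against neutrophil markers, while in tumor Ccr2 against monocyte markers and Ccr7 against B lineage markers do not overlap between the genotypes. For Ccr7 the lack of overlap follows from its counts and the sum of the markers, and stroma is left out, since Ccr7 was near 0 there.

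The second comparison asked the same of the host cells, which lack Il6 in the KO. In stroma, none of the 5 receptors tested was called between the genotypes (limma, Benjamini-Hochberg over 12202 genes), as was the case for nearly all genes, with 0.0082% called. At an unadjusted p under 0.05 the count was 1, Cx3cr1, beside 9.15% of all genes. For Cx3cr1 the IL-6 KO values were all above the highest WT value, as for 2.54% of all genes, and for Cxcr4 they were all below the lowest, as for 3.25% of all genes. The standard errors of the receptors in stroma were 0.34 to 1.67 on the log2 scale, against 0.11 to 0.58 in tumor.

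Cxcr4 had normalized counts of 395, 406, 672 and 371 in WT stroma 1 to 4 and 206, 340, 348 and 303 in IL-6 KO stroma 1 to 4. The lowest WT library and the highest IL-6 KO library were close, and WT stroma 3 stood far above the rest. The log2 fold change was -0.61 ± 0.34 (SE, adjusted p = 0.608 by limma), with a 95% interval from -1.35 to 0.13, and leaving out any stroma library gave -0.70 to -0.41.

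Cx3cr1 had normalized counts of 39.9, 35.7, 23.7 and 38.5 in WT stroma 1 to 4 and 90.9, 81.4, 42.9 and 149.2 in IL-6 KO stroma 1 to 4. The groups did not overlap, with IL-6 KO stroma 3 just above the WT libraries, and the log2 fold change was 1.27 ± 0.55 (SE, adjusted p = 0.515 by limma).

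Cxcr2 had normalized counts of 38.5, 79.3, 93.7 and 90.3 in WT stroma 1 to 4 and 162, 105, 37.9 and 421 in IL-6 KO stroma 1 to 4. IL-6 KO stroma held both the highest and the lowest library. The log2 fold change was 0.84 ± 0.66 (SE, adjusted p = 0.719 by limma), and it went down to 0.28 when IL-6 KO stroma 4 was left out and up to 1.42 when library 3 of that group was.

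Ccr2 had normalized counts of 40.6, 37.1, 27.9 and 12.7 in WT stroma 1 to 4, and of 6.12, 15.1 and 88.7 in IL-6 KO stroma 1, 2 and 4, with IL-6 KO stroma 3 listed at 0. All but 1 of the IL-6 KO libraries were at or below 15.1, and IL-6 KO stroma 4 was the highest of the 8. The log2 fold change was -1.48 ± 1.20 (SE, adjusted p = 0.730 by limma), or -2.54 when IL-6 KO stroma 4 was left out and -0.37 when library 3 of that group was, whereas the log2 ratio of the group means was -0.11.

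Ccr1 was listed at 0 in WT stroma 1 and in IL-6 KO stroma 1 and 3. The other values were 2.54, 7.22 and 9.75 in WT stroma 2 to 4, and IL-6 KO stroma 2 and 4 had 16.8 and 76.6. The gene was under 10 in 6 of the 8 libraries and passed the filter through IL-6 KO stroma 4. Its log2 fold change of 0.54 ± 1.67 (SE, adjusted p = 0.951 by limma) turned to -0.69 without IL-6 KO stroma 4 and to -0.15 without WT stroma 1.

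Ccr7 was near 0 in stroma and was not tested, with a mean of 2.82 over the 8 libraries. It was listed at 8.83 and 11.1 in WT stroma 1 and 4, at 2.63 in IL-6 KO stroma 2, and at 0 in the other 5 libraries. An entry of 0 among these values can be a failed estimate and does not show absence of the transcript.

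IL-6 KO stroma 4 had the highest normalized count of the 8 stroma libraries for Cxcr2, Ccr1, Ccr2 and Cx3cr1, and the lowest share of Cxcr4. Of 18 mature neutrophil markers tested in stroma, 15 were higher in IL-6 KO and none was called, and their summed level was 8784 to 16992 in WT stroma, 9226 in IL-6 KO stroma 3 and 33890 to 36518 in the other IL-6 KO libraries. Of 10 monocyte and macrophage markers tested, 7 were higher and none was called, with summed levels of 509 to 1236 in WT stroma and 950 to 2074 in IL-6 KO stroma. Of 14 erythroid markers, 12 were lower and none was called, nor was any marker of the other 6 cell type lists. The summed erythroid level was 203175 to 251953 in WT stroma. IL-6 KO stroma 1 to 4 had 92350, 261815, 433409 and 97022. IL-6 KO stroma 1 and 4, the lowest of these, had the highest Cxcr2 values, and IL-6 KO stroma 3, the highest, had the lowest. No marker that the stroma table listed was at 0 in every stroma library. Several markers were not listed there, among them 6 of 18 monocyte and macrophage markers, 14 of 18 T and NK cell markers and the erythroid marker Ahsp. The part of these cells in the receptor values was not tested. Relative to the neutrophil markers of the same library, Cxcr2 was 4.39 to 6.13 per 1000 in WT stroma and 2.96 to 12.4 per 1000 in IL-6 KO stroma. Cx3cr1 was 1.55 to 4.55 and 2.29 to 4.65 per 1000, ranges that overlap with each other and with those of both tumor groups.

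A test of the difference between tumor and stroma in the effect of the host genotype called none of the 5 receptors that could be tested (limma interaction over all 16 libraries and 10887 genes, of which 0.00919% were called). The difference, tumor minus stroma, was largest for Ccr2, at a log2 value of 2.70 with a 95% interval from -0.06 to 5.46 (limma adjusted p = 0.575), since Ccr2 was higher in IL-6 KO tumor and had a negative estimate in stroma. For Cxcr4 it was 0.66, with an interval from -0.23 to 1.54 (limma adjusted p = 0.698). For Cxcr2, Ccr1 and Cx3cr1 it was 0.53, 1.37 and 0.59, with standard errors between 1.20 and 2.09. The called differences of Cxcr2, Ccr1, Ccr2 and Cx3cr1 in tumor were therefore not shown to be particular to tumor. Ccr7, also called in tumor, was not tested in stroma and could not be compared.

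**Figure D4:**
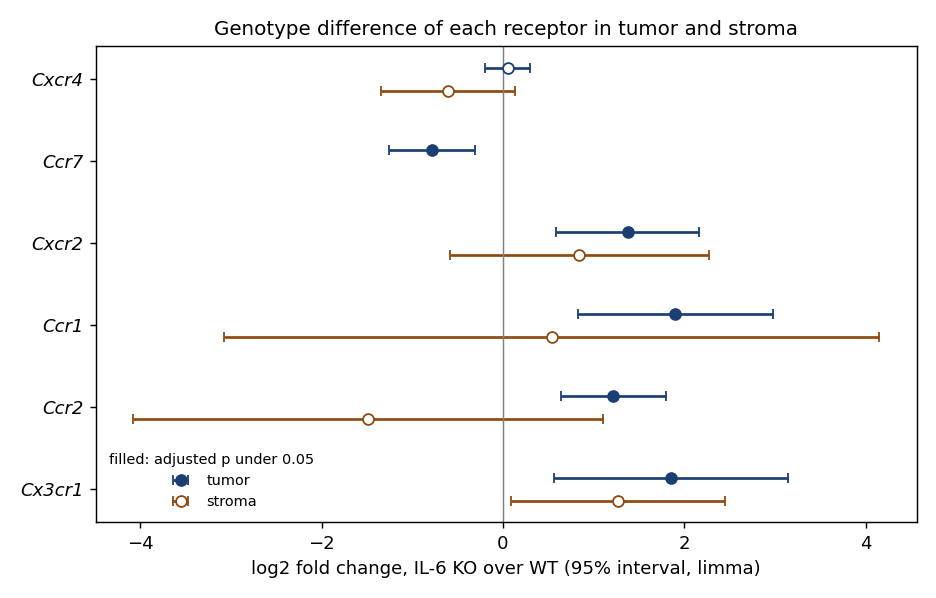
Log2 fold change of IL-6 KO over WT (x axis, with 95% intervals from limma) for each receptor (y axis) in tumor (blue) and stroma (brown), filled where the adjusted p was under 0.05. The 5 filled points are all in tumor, with Ccr7 below 0 and the other 4 above, and the stroma intervals of Ccr1 and Ccr2 span over 5 log2 units.

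Other chemokine and chemoattractant receptors were read from a list of 26 genes, 13 of which were tested in tumor. Of these 10 were higher and 3 lower, with 4 called higher and none lower, beside 10.6% and 9.16% of all genes, and a median log2 fold change of 0.30, beside -0.01 over all genes. Ltb4r1, the leukotriene B4 receptor of neutrophils, rose from 21.7 ± 8.33 to 80.0 ± 31.0 (SD, n = 4 each), a log2 fold change of 1.82 (adjusted p = 0.0157 by limma). Fpr2, a receptor of formyl peptides, rose by 1.37 on the log2 scale (limma adjusted p = 0.0321), and C5ar1, the complement C5a receptor, by 1.29 (limma adjusted p = 0.0390). S1pr4, a sphingosine 1-phosphate receptor of leukocytes, was far more abundant and rose from 1291 ± 103 to 1837 ± 257 (SD, n = 4 each), a log2 fold change of 0.50 (adjusted p = 0.0152 by limma). In stroma 11 of the 26 were tested, 8 higher and 3 lower, and none was called. Fpr1 was again counted as higher and passed the filter only through its IL-6 KO level, with means of 6.07 in WT and 19.9 in IL-6 KO stroma. The smallest p values were those of Ackr1, the atypical receptor that binds many chemokines, with a log2 fold change of -1.17 (adjusted p = 0.483 by limma), and of S1pr4, with 0.80 (limma adjusted p = 0.583).

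Of 34 chemokine ligands, 9 were tested in tumor, of which 4 were higher and 5 lower, with 2 called higher (10.6% of all genes were), none lower and a median log2 fold change of -0.30. Ccl9, a ligand of Ccr1, rose from 8.56 ± 0.985 to 51.7 ± 19.1 (SD, n = 4 each), a log2 fold change of 2.40 (adjusted p = 0.00219 by limma), and is also a monocyte and macrophage marker. Its WT mean was under the filter value of 10, so that it was tested only through its IL-6 KO level. The same holds for Pf4, another of the ligands counted as higher, with means of 7.77 in WT and 16.9 in IL-6 KO tumor. Mif, a cytokine that also binds Cxcr2 and Cxcr4, rose by 0.22 on the log2 scale (limma adjusted p = 0.0484) from an abundant level of 7734 ± 426 (SD, n = 4). Cxcl12, the ligand of Cxcr4, was at 36.3 in WT and 27.2 in IL-6 KO tumor on average (log2 fold change -0.39, limma adjusted p = 0.513). In stroma 4 ligands were tested, all with positive estimates and none called. Cxcl2, 1 of these 4, passed the filter only through its IL-6 KO level, with means of 3.41 in WT and 43.5 in IL-6 KO stroma. Its positive sign was therefore favoured by the filter. Those with the smallest p were Cxcl2, a ligand of Cxcr2, with a log2 fold change of 2.35 ± 1.60 (SE, adjusted p = 0.676 by limma), and Mif, with 0.53 (limma adjusted p = 0.825).

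Of 44 genes of receptor signalling, 43 were tested in tumor, with 25 higher and 18 lower, 7 called higher, 6 called lower and a median log2 fold change of 0.12. As shares of the 43 these were 16.3% higher and 13.95% lower, near the 10.6% and 9.16% of all genes, so that the counts are no result about the list, and the single genes are given as values. Gnai2, the inhibitory G protein subunit of leukocytes, rose by 0.38 on the log2 scale (limma adjusted p = 0.00865), and Grk6, a kinase that desensitizes chemokine receptors, by 0.38 (limma adjusted p = 0.0037). The integrin regulator Fermt3 rose by 0.38 (limma adjusted p = 0.00531), the Rap activator Rapgef1 by 0.32 (limma adjusted p = 0.00949) and the actin regulator Was by 0.30 (limma adjusted p = 0.00681). Dpp4, a surface protease that cleaves Cxcl12, fell by 0.48 on the log2 scale, from 4907 ± 153 to 3532 ± 252 (SD, n = 4 each, limma adjusted p = 0.0029). The small GTPases Rap1a and Rac1 fell by 0.72 and by 0.42 (limma adjusted p = 0.00308 and 0.00395), Rgs2, a regulator of G protein signalling, by 0.40 (limma adjusted p = 0.0336), and the Rac activator subunit Elmo1 by 0.26 (limma adjusted p = 0.0383). In stroma 41 of the 44 were tested, with 33 higher and 8 lower, and none was called. The smallest p values were those of Rap1a, with a log2 fold change of -1.14 (adjusted p = 0.458 by limma), and Rapgef1, with 0.81 (limma adjusted p = 0.480).

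The genes whose log2 levels ran most alike with each receptor over the 8 libraries of a table were found by Pearson's r, given as a description, since the libraries share 2 genotype groups and 1 scaling. Among 10283 protein-coding genes of the tumor table with a mean over 50, the highest were Pcdhb20, Gstt2 and Ppt1 for Cxcr4 (r = 0.932 to 0.981), Zbtb32 and Smpd3 for Cxcr2 (0.963 for both) and Eea1, Dus3l and Pbx2 for Ccr1 (0.988 to 0.996). They were Nars, Taok2 and Unk for Ccr2 (0.981 to 0.989), Trp53inp1, Hadha and Slc25a3 for Ccr7 (0.961 to 0.964) and Ski, Sssca1 and Rexo4 for Cx3cr1 (0.969 to 0.979). Among 7628 such genes of the stroma table they were Ap2a2, Nop14 and 4931406P16Rik for Cxcr4 (0.978 to 0.990), Lilr4b, Arrb2 and Inhba for Cxcr2 (0.983 to 0.989) and Grk6, Wdfy2 and Itsn2 for Ccr1 (0.964 to 0.967). For Ccr2 they were Rbm41, Tbc1d1 and Mphosph8 (0.968 to 0.989), and for Cx3cr1 they were Cdyl2, Ppp4r3a and Mgat2 (0.961 to 0.975). No gene was named for the same receptor in both tables.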

How the data were processed

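RNA of mCherry+ tumor and mCherry- stroma was sequenced by the authors as single-end reads of 75 nucleotides from a directional, ribosome-depleted library. Per the labels and the methods, the authors quantified reads with salmon 1.3.0 on mm10, correcting for GC and sequence bias, and scaled the estimated counts with DESeq2 1.28.1. The authors deposited these normalized counts, a scaled signal and not whole reads, separately for tumor and stroma, together with their own comparison of the genotypes (mean, log2 fold change, Wald statistic, p-value and adjusted p-value), which was not used here. Samples were grouped by their labels, and all 16 were used.

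Of the identifiers, 15069 of 15080 in tumor and 13338 of 13344 in stroma were found in GENCODE vM21. Because whole reads are needed for a count test, limma 3.58.1 (R 4.3.3) was run on log2(normalized count + 1), with a mean-variance trend, for genes whose mean exceeded 10, two-sided, with a threshold of 0.05 and genotype as the only term. The test of the difference between tumor and stroma used genes with a mean over 10 in both tables and 1 weight per compartment. The fits were tested on simulated data. Levels per kilobase used the union of a gene's exons. Transcripts were compared with BLAST 2.17.0 (at least 97% identity over at least 150 nucleotides), and Python 3.11.15, pandas 2.3.3 and matplotlib 3.10.9 were used for the descriptions and figures.

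The members and the marker and pathway lists, written from general knowledge, were chosen with earlier results of these data known. Named were the 7 members and, from each pathway list, up to 5 genes per table and direction with an adjusted p under 0.05 and the smallest p, or the 2 genes with the smallest p where none was called, and the 3 genes most alike to each member, of which 1 is not reported here. Cxcl12 was named outside this rule, after its values were seen, as the ligand of Cxcr4. Alternatives were pseudocounts of 0.5 and 5, no filter or a mean over 50, quantile normalization, centring on the median, array weights (equal weights in the fit over both tables), each library left out, the replicate number as a block and the longest transcript as length. The methods give an approximate depth for all libraries but no read number for each, so that no interval from read counts was computed.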

Additional observations from a re-analysis of the deposited data

Results flagged for a closer look

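In 4 of the 24 combinations of receptor and group, the highest or lowest of the 4 libraries was far from the others by Dixon's test of its gap to the nearest library over the range of the group, where chance alone gives about 1 in 20. Ccr2 in IL-6 KO stroma 4 was at 88.7, with the nearest library at 15.1. Ccr7 in IL-6 KO stroma 2 was at 2.63, with the other 3 libraries at 0, a pattern that this test always picks out and that says nothing about the size of the value. Cxcr4 in WT stroma 3 was at 672, with the nearest at 406. Cx3cr1 in WT tumor 1 was at 3.68, below the nearest at 15.0, and without this library its log2 fold change in tumor was 1.39 (adjusted p by limma = 0.0853). All values are normalized counts.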

How the results depend on the processing

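The direction and the call held for 261 of 287 values of single receptors under the alternatives, while 21 lost the call and 5 changed sign, none of the 5 called. The 287 include values of stroma, of Cxcr4 and of the difference between tumor and stroma, which had no call to lose. In tumor, of the 8 fits that left out a library, the call was kept in 8 for Ccr2 and 6 for Cxcr2. It was kept in 5 for Ccr1, 3 for Ccr7 and 1 for Cx3cr1. The changes of sign came from leaving out a library: the log2 fold change of Cxcr4 in tumor ranged from -0.0248 to 0.138, that of Ccr1 in stroma from -0.687 to 1.41, and the difference between tumor and stroma for Cxcr2 from -0.0487 to 1.10. The number of receptors called in tumor (5 of 6) was 2 of 3 tested with a mean over 50, and 1 to 4 without a library. Over all genes, 1572 to 3328 in tumor (2870 with all libraries) and 1 to 3 in stroma (1 with all) were called without a library, and with array weights 4153 in tumor and 4 in stroma. Leaving out a library also leaves fewer samples in the fit. With all libraries, Ccr2 was called in tumor under all 8 other settings, and Ccr1 and Cxcr2 under the 7 that could test them. Ccr7 lost its call with quantile normalization (adjusted p = 0.134) and Cx3cr1 with a pseudocount of 0.5 (adjusted p = 0.0503). The cause was not tested.

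Within a table, WT and IL-6 KO libraries with the same replicate number did not deviate together (correlations of -0.0186 to -0.000283 in tumor and -0.0293 to 0.126 in stroma). The labels do not say whether tumor and stroma libraries of the same number came from the same mouse, and this was not tested. The fit over both tables treated all libraries as separate samples. With the replicate number as a block, 3 receptors were called in tumor, with adjusted p of 0.0529 for Ccr7 and 0.0753 for Cx3cr1. The block moved no other call of a receptor. The depth of each library is not known, and receptors with values near 0, Ccr1, Ccr2 and Ccr7 in stroma, are the least precise.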
